A study of Mus musculus with 6 samples.

Results

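The CC chemokines studied here were 10 secreted attractants of leukocytes: Ccl2, Ccl3, Ccl4, Ccl5, Ccl6, Ccl7, Ccl9, Ccl11, Ccl12 and Ccl24. They are a list of names that uses no measured value as a criterion, although it was drawn up with earlier results of these data known, and are 10 of the 22180 mouse genes that the array annotation names singly. Each gene had 1 probe set. Enough signal for a test was found for 9 of the 10, among 15526 tested genes in all. Ccl12 fell below the limit, a mean log2 signal of 4.70 over the arrays, and is given as values without a test.

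RNA came from primary mouse hepatic stellate cells, which store vitamin A in the resting liver and become collagen-producing myofibroblasts when activated. It was hybridised to 6 Affymetrix arrays. Each combination of 2 ages with 3 states had 1 array, and cells from 5 mice were pooled for each sample. Young mice were 8 to 11 weeks old and old mice 6 to 9 months old. Quiescent cells had been plated for 12 h after isolation from normal liver and were not treated. Activated cells had been in culture on plastic for more than 20 days and received either the vehicle, dimethyl sulfoxide, or 10 µM C-82. The labels name the latter samples PRI-724, after the prodrug from which C-82 arises, and this compound keeps beta-catenin from binding its coactivator CBP. All groups grew in the same serum-containing medium, and the labels give neither strain nor sex nor the time of exposure to C-82. With 1 array in each group no group had a spread of its own. The error of a difference between states (n = 2 pairs, young and old) is limma's moderated disagreement of the ages over the 3 states, and that of a difference between ages (n = 3 states) is the same disagreement. All values are log2 signals or differences of them, ± is the standard error, and a gene was called at a Benjamini-Hochberg adjusted p of 0.05 over all tested genes.

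CC chemokines are small proteins that carry a pair of adjacent cysteines near the amino terminus and act through G protein-coupled CCR receptors. Ccl2 and Ccl7 draw CCR2-bearing monocytes into the injured liver and are made by stellate cells as well as by macrophages. Ccl3, Ccl4, Ccl6 and Ccl9 are typical products of macrophages and other myeloid cells, while Ccl11 and Ccl24 are eotaxins that attract eosinophils through CCR3. On this background the members were set in order as stellate-leaning (Ccl2, Ccl7, Ccl11), macrophage-leaning (Ccl3, Ccl4, Ccl6, Ccl9, Ccl12, Ccl24) and made by several cell types (Ccl5). This order is textbook knowledge and was not measured here.

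The samples held RNA of more than stellate cells. The stellate markers Pdgfrb and Acta2 ranged over the arrays from 7.94 to 9.96 and from 5.94 to 10.49. The leukocyte gene Ptprc and the macrophage receptor genes Adgre1 and Csf1r reached 7.51, 8.10 and 9.01. The mean log2 signal of 16 macrophage markers was 8.32 on the young quiescent array and 9.12 on the old quiescent array. On the vehicle arrays it was 8.74 and 8.65, and on the PRI-724 arrays 5.95 and 6.27, young before old. The means of 12 sinusoidal endothelial markers were, in the same order, 9.67 and 8.28, 9.50 and 9.18, and 6.06 and 6.88. Those of 9 hepatocyte markers were 6.36 and 9.16, 4.98 and 7.09, and 6.36 and 7.15. In bulk RNA, fewer cells of a type and less RNA per cell cannot be told apart. The young PRI-724 array stood apart, with an interquartile range of 1.71 log2 units over the tested genes against 2.11 to 2.43 on the other 5.

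The members whose signal fell most under PRI-724 were Ccl3, Ccl6 and Ccl9, and RefSeq promoters (GRCm38.p6) were at hand for these and for Ccl12, so for 4 of the 10 members. The 100 bases before each start of the first 3 are shown because these genes lie in a row on chromosome 11 and had lower signal together. Capitals mark matches to the motifs searched on both strands.

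Ccl3, chr11:83649379-83649478, minus strand: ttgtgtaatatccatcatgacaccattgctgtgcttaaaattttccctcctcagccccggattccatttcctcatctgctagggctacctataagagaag
Ccl6, chr11:83593088-83593187, minus strand: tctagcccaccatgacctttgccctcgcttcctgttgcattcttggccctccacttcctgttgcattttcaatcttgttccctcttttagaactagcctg
Ccl9, chr11:83578637-83578736, minus strand: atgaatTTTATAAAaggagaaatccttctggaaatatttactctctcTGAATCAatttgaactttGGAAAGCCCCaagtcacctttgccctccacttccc

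In Ccl9 the capitals are, in order, TATAAA matches on both strands that overlap, the AP-1 motif TGANTCA starting 53 bases before the start, and an NF-kB consensus starting 35 bases before it. NF-kB is the transcription factor through which inflammatory signals switch on many chemokine genes. Of all 32851 promoters of the table (300 bases each), 8.46% hold the NF-kB consensus, 7.81% the AP-1 motif and 13.6% TATAAA. Ccl12 also holds TATAAA, 31 bases before its start. The TCF/LEF motif CTTTGAT, to which the partners of beta-catenin bind, is in 3.73% of promoters and in 0 of the 4. The STAT motif TTCNNNGAA (8.3% of promoters) and the STAT6 form with a spacer of 4 bases (6.95%) are also in 0 of the 4. Ccl6 and Ccl9 share a stretch of 74 aligned columns with 58 identical bases (78.4%), which begins 59 bases before the start of Ccl6 and 18 bases before that of Ccl9. The other pairs of the 4 promoters aligned over 9 to 17 columns. These matches describe the letters in the window and show no binding.

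Culture activation was compared first, as vehicle-treated against quiescent cells. Of the 9 tested members, 4 were lower in activated cells (Ccl2, Ccl4, Ccl5 and Ccl7) and 0 were higher (limma). Among all tested genes 1.26% were called lower and 4.61% higher. At an unadjusted p under 0.05, 5 members were lower and 0 higher, and of all 15526 tested genes 6.73% were lower (3484 genes in either direction). The members' median difference was -1.06 and that of all tested genes 0.04. In 6 of the 9 members both vehicle arrays lay below both quiescent arrays, against 24.9% of all tested genes.

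Ccl2, the main monocyte attractant, had a log2 signal of 12.32 (young) and 11.45 (old) in quiescent cells and of 11.01 and 9.10 in vehicle-treated cells. All quiescent values were above all vehicle values, and the fitted change was -1.83 ± 0.30 (3.55-fold lower, limma adjusted p = 0.0102). Ccl7, a second ligand of CCR2, stood at 11.52 and 10.39 in quiescent cells and at 9.76 and 7.51 under vehicle. It fell by 2.32 ± 0.29 (4.99-fold, limma adjusted p = 0.00469), again without overlap. Without the young quiescent array Ccl2 stood at -2.42, and without the old one at -1.24. Both genes were lower under vehicle in both ages. The call of Ccl2, but not that of Ccl7, was lost without the young or without the old PRI-724 array, at -1.83, and after quantile normalization or cyclic loess, at -2.002 and -1.95. Ccl11, the eotaxin of fibroblast-like cells, was near the limit of signal at 4.94 and 5.44 in quiescent and 4.81 and 4.38 in vehicle-treated cells. Its difference of -0.59 (95% interval -1.30 to 0.11) was not called.

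Ccl5, which attracts T cells and monocytes, showed the greatest fitted difference of the comparison among the members. Its log2 signal was 11.63 on the young quiescent array, 8.24 on the old one, and 7.07 and 5.54 on the young and old vehicle arrays. The young quiescent array was far above the rest, and the groups did not overlap. The change of -3.63 ± 0.48 is a 12.4-fold lower signal (limma adjusted p = 0.00599). It was -2.58 without the young and -4.68 without the old quiescent array. T and NK cells are known to make Ccl5. Of 13 of their markers on the array 5 had enough signal for a test. Of these 5, 0 were called in this comparison (limma), and 0 had an unadjusted p under 0.05. The other markers were too dim to be called. The mean log2 signal of the 13 was 5.00 and 4.75 on the quiescent arrays and 4.46 and 4.35 on the vehicle arrays, young before old. Their part in the difference of Ccl5 was not tested.

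The macrophage-leaning members went different ways. Ccl4, an attractant of monocytes and lymphocytes, had a signal of 7.99 and 7.26 in quiescent and of 6.85 and 6.28 in vehicle-treated cells. Its fall of 1.06 ± 0.26 (2.08-fold, limma adjusted p = 0.0440) was close to the threshold, and the call was lost without any 1 of the 6 arrays and without the filter on low signal. Ccl3, the neighbour of Ccl4 on the chromosome and a ligand of CCR1, kept 10.63 against 10.45 in the young pair and went from 9.98 to 8.55 in the old pair. The difference of -0.81 (-1.66 to 0.05) was not called. In RefSeq the spans of Ccl3 and Ccl4 overlap.

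Ccl6, a myeloid chemokine of rodents, was at 6.23 on the young quiescent array and at 10.78 on the young vehicle array. In old cells it was at 10.46 in quiescence and 9.39 under vehicle. The pairs had opposite signs, 4.55 and -1.07, and the fitted 1.74 ± 0.94 was not called. Ccl9, a related myeloid chemokine, stood at 9.75 and 10.72 in young cells and at 10.97 and 8.72 in old cells. Its pairs, at 0.97 and -2.26, also had opposite signs, and the fitted value was -0.64 ± 0.58. Ccl24, the eotaxin of alternatively activated macrophages, was low throughout, with 5.29 and 5.93 in quiescent and 4.71 and 4.17 in vehicle-treated cells, and its -1.17 ± 0.33 was not called (limma adjusted p = 0.0684). Ccl12, a monocyte attractant, was at 3.99 and 3.68 in quiescent and 4.35 and 3.12 in vehicle-treated cells.

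**Figure D1:**
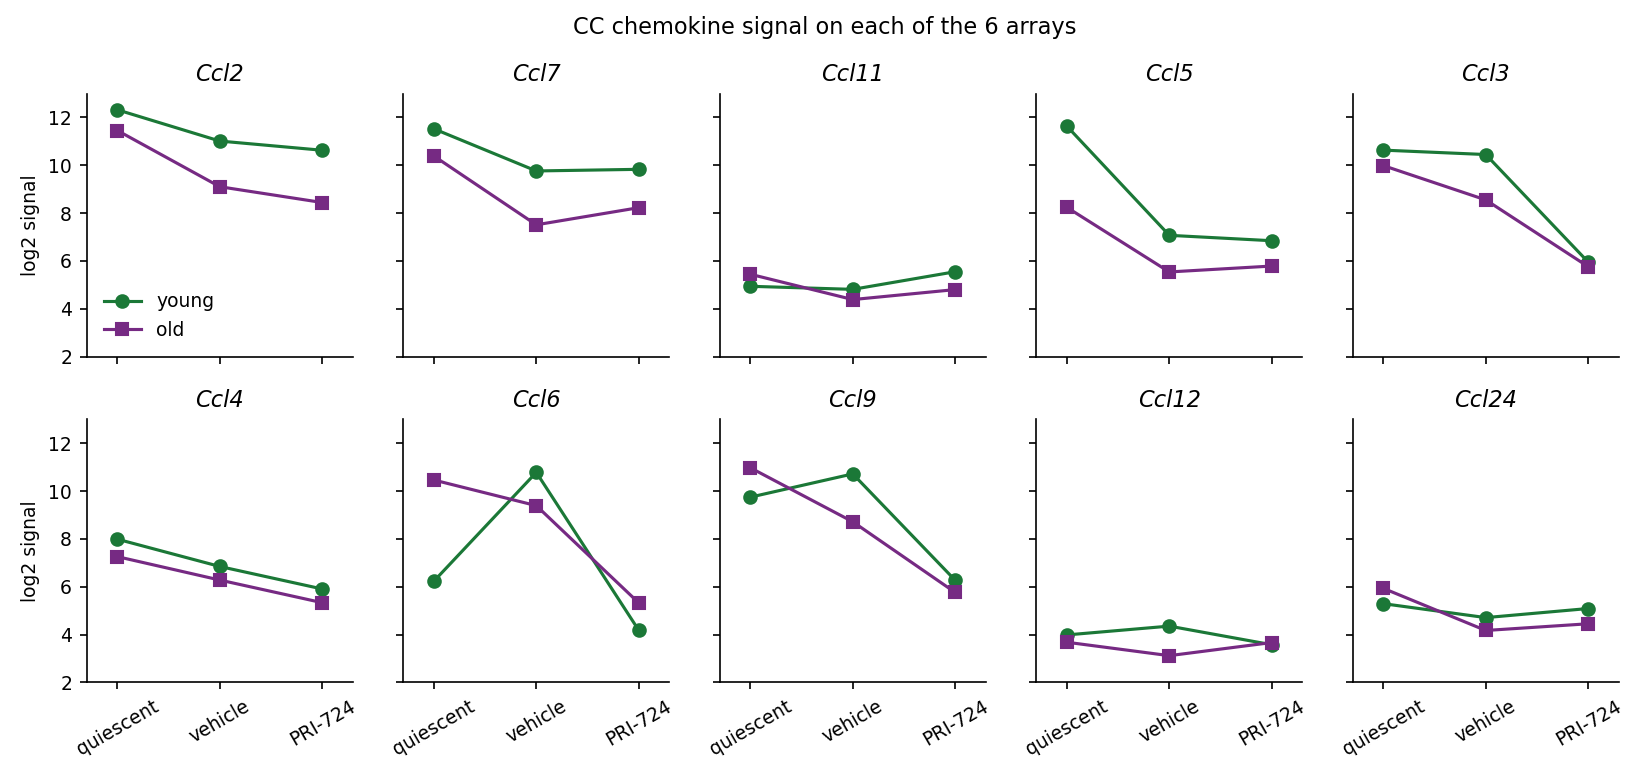
Log2 signal of each of the 10 CC chemokines (vertical axis) in the quiescent, vehicle and PRI-724 states (horizontal axis), 1 point for each array, green circles for young and purple squares for old cells. Ccl2, Ccl7 and Ccl5 are highest in quiescent cells, whereas Ccl3, Ccl6 and Ccl9 are lowest on both PRI-724 arrays. Lines join the arrays of an age.

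Some genes of the signals that induce CC chemokines, an antagonist among them, were lower in the same comparison. Of 15 tested inducing cytokines and receptors 4 fell and 0 rose: Il1b at -2.65 ± 0.32, Tnf at -1.61 ± 0.32, the interleukin-1 antagonist Il1rn at -1.31 ± 0.31 and the endotoxin co-receptor Cd14 at -1.23 ± 0.30 (median of the list -0.39). Of 15 genes of the NF-kB pathway 2 fell and 0 rose, with a median of -0.61. They were the feedback inhibitors Tnfaip3, at -2.04 ± 0.26, and Nfkbia, at -1.62 ± 0.22. Genes of RNA and dissociation stress moved too: 4 of 10 were called lower, among them Hspa1b at -3.55 ± 0.37 and Atf3 at -1.13 ± 0.27. The mean signal of these 10 genes was 9.62 and 8.94 on the quiescent arrays and 8.15 and 8.06 on the vehicle arrays, and their part in the chemokine differences was not tested. Without the young PRI-724 array 2 of the 10 were called. Of 16 macrophage markers 1 was called higher (Vsig4 at 1.58 ± 0.33) and 0 lower, with a list median of -0.06, and Vsig4 was not called after cyclic loess. Of 15 stellate markers 7 were called higher and 1 lower, with a median of 1.56, among them Acta2 at 3.66 ± 0.41 and Col1a1 at 2.91 ± 0.48. Of 12 sinusoidal endothelial markers 2 were called higher and 0 lower, Oit3 at 3.002 ± 0.35 and Kdr at 1.40 ± 0.35. After cyclic loess 5 stellate and 1 endothelial marker were called. Of 9 tested hepatocyte markers 3 were called lower (1 after cyclic loess), with a median of -1.55.

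The second comparison asked what C-82 did to activated cells, as PRI-724 against vehicle. Of the 9 tested members 3 fell, Ccl3, Ccl6 and Ccl9, all of the macrophage-leaning order, and 0 rose (limma). The background was 1.93% called lower and 0.271% called higher. At an unadjusted p under 0.05 the members' counts were 4 lower and 0 higher, beside 11.1% of all tested genes lower (2404 genes in either direction). The 5 tested macrophage-leaning members had a median of -3.64, the 3 stellate-leaning members one of 0.39, and all tested genes one of -0.05. Among the macrophage-leaning members Ccl4 (-0.94) and Ccl24 (0.33) were not called, and the stellate-leaning ones ran from -0.52 to 0.58. The orders were set with earlier results of these data known, and no test was made of the difference between them. Both PRI-724 arrays lay below both vehicle arrays in 4 of the 9 members, and 26.3% of all tested genes did so.

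Ccl3 went from 10.45 to 5.95 in young and from 8.55 to 5.76 in old cells. The arrays were well apart, and the fall of 3.64 ± 0.38 is 12.5-fold (limma adjusted p = 0.00210). Ccl9 went from 10.72 to 6.27 and from 8.72 to 5.76, a fall of 3.70 ± 0.58 or 13.01-fold (limma adjusted p = 0.0119). Ccl6 had the widest change of the members, from 10.78 to 4.18 in young and from 9.39 to 5.33 in old cells. It fell by 5.33 ± 0.94, which is 40.3-fold (limma adjusted p = 0.0210). Its 4.18 on the young PRI-724 array is below 4.70, the mean signal that a gene needed for a test. The fold thus rests in part on a value of low signal. For these 3 genes the PRI-724 arrays were the lowest of each age, below the quiescent ones as well. Ccl4 was lower by nearly the same amount in both ages, at 6.85 and 5.91 in young and 6.28 and 5.33 in old cells, but its -0.94 ± 0.26 was not called (limma adjusted p = 0.107).

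These calls need the young PRI-724 array. Without it 0 of the 15526 genes were called by limma in this comparison, with 997 at an unadjusted p under 0.05, 4 of them members. The differences without it were -3.10 for Ccl3, -5.47 for Ccl6 and -3.76 for Ccl9, each in the same direction. Without the old PRI-724 array Ccl3 was called, at -4.18, and Ccl6 and Ccl9 were not. Leaving out the young or the old vehicle array moved the size: to -2.90 and -4.38 for Ccl3, -3.29 and -7.37 for Ccl6, and -2.52 and -4.88 for Ccl9. After quantile normalization or cyclic loess of the arrays Ccl3 was likewise the called member, at -3.48 in both, and after centring the arrays on their medians Ccl6 was not called.

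The stellate-leaning members had small differences. Ccl2 went from 11.01 to 10.63 in young and from 9.10 to 8.44 in old cells, a difference of -0.52 with a 95% interval of -1.18 to 0.14. Ccl7 was at 9.76 and 9.83 in young and at 7.51 and 8.23 in old cells, and its 0.39 had an interval of -0.26 to 1.04. Vehicle and PRI-724 arrays overlapped for both genes, since the ages were further apart than the treatments. Ccl11 stood at 4.81 and 5.55 in young and 4.38 and 4.80 in old cells, with 0.58 (-0.13 to 1.28). Ccl5 was nearly level, at 7.07 and 6.84 in young and 5.54 and 5.79 in old cells, and its 0.01 had an interval of -1.06 to 1.08. Ccl24 was at 4.71 and 5.09 in young and at 4.17 and 4.45 in old cells, with a difference of 0.33 (-0.41 to 1.07). Ccl12 went from 4.35 to 3.58 in young and from 3.12 to 3.67 in old cells. An interval that spans 0 leaves room for a change of the size of its bounds.

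**Figure D2:**
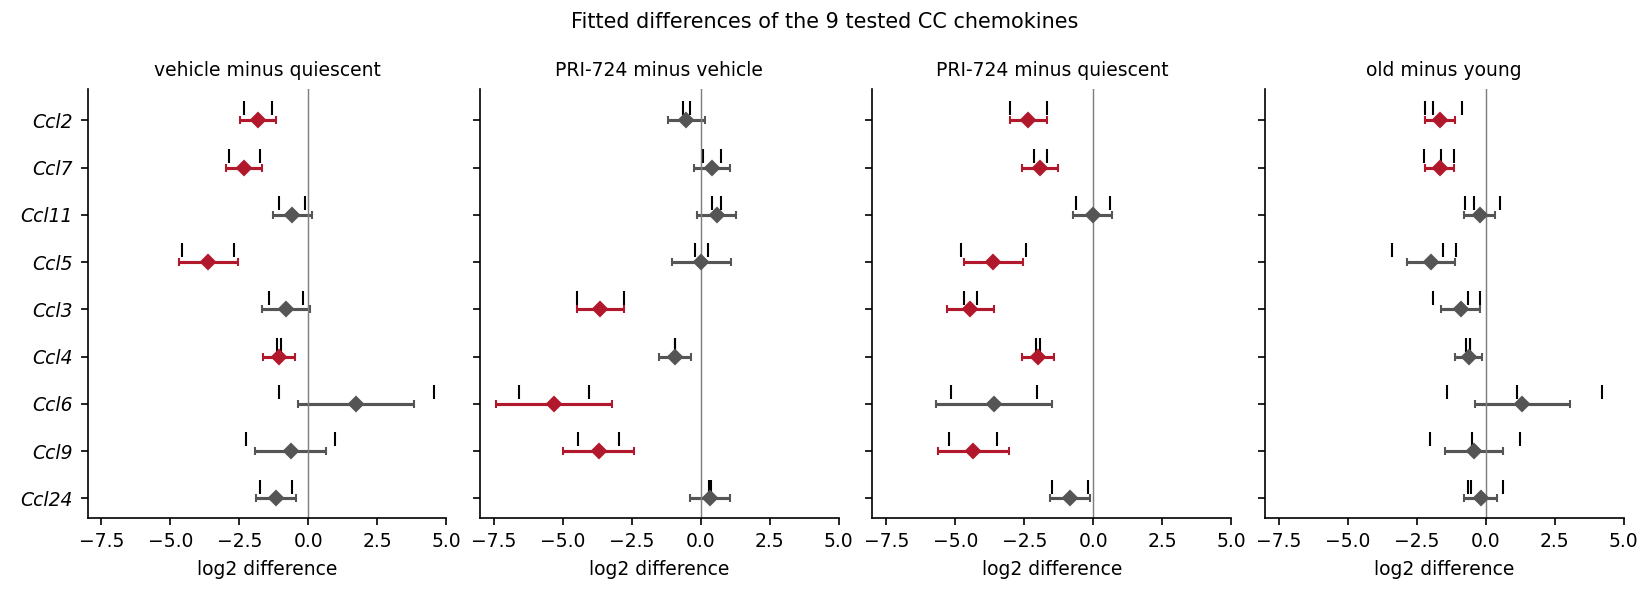
Fitted log2 differences (horizontal axis) of the 9 tested CC chemokines in the 4 comparisons. Diamonds are estimates with 95% intervals, red where the gene was called and grey where not, and black ticks are the differences of the single pairs. Ccl3, Ccl6 and Ccl9 are far below 0 for PRI-724 minus vehicle, whereas Ccl2, Ccl7 and Ccl5 are near it.

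Markers of macrophages fell with these chemokines. Of 16 macrophage markers 13 were called lower and 0 higher, with a median of -2.45. Cd5l stood at -5.14 ± 0.51, Vsig4 at -5.08 ± 0.33, Mpeg1 at -3.41 ± 0.31 and Marco at -3.14 ± 0.65. Adgre1 was at 8.10 and 7.47 under vehicle and at 5.43 and 5.19 under PRI-724, young before old, and Ptprc at 7.51 and 7.41 and then 5.32 and 5.50. Of 12 sinusoidal endothelial markers 11 were called lower, with a median of -2.63. After cyclic loess the counts were 9 of the macrophage and 4 of the endothelial markers, and without the young PRI-724 array 0 of either. Of 15 stellate markers 2 were called lower (Tcf21 at -1.84 ± 0.33 and Lrat at -1.69 ± 0.31), with a median of -1.15, and 0 after cyclic loess. The part of the macrophage markers in the chemokine differences was not tested.

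Of the 15 tested inducing cytokines and receptors 2 fell and 0 rose: the cytokine Il1a, which macrophages and stressed cells release, at -2.76 ± 0.29, and Il1rn, which blocks the interleukin-1 receptor and is no inducer, at -1.95 ± 0.31. Of the 15 NF-kB pathway genes 0 were called by limma (1 lower and 3 higher at an unadjusted p under 0.05), with a median of -0.02.

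**Figure D3:**
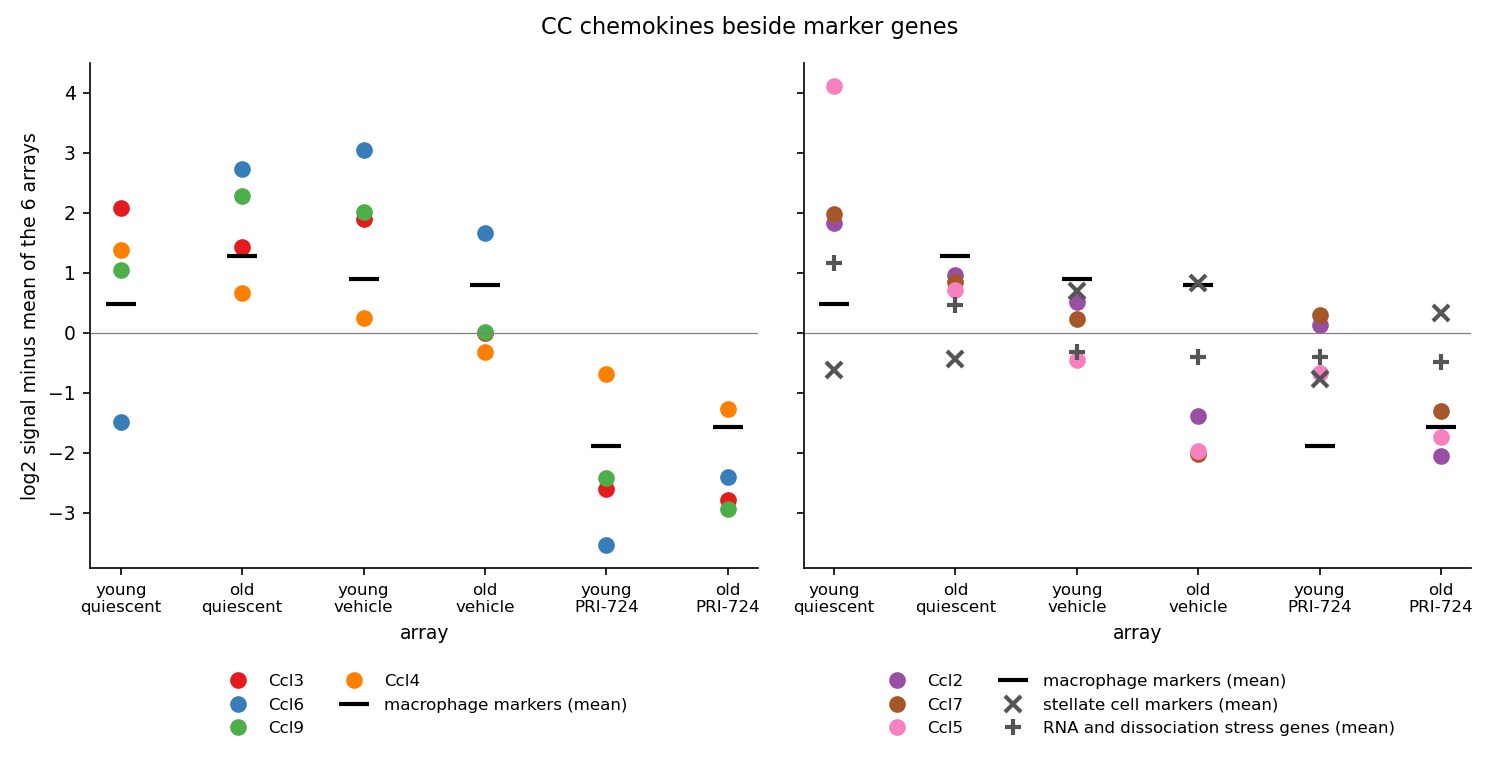
Log2 signal minus the mean of the 6 arrays (vertical axis) on each array (horizontal axis). The left panel shows Ccl3, Ccl6, Ccl9 and Ccl4 with the mean of 16 macrophage markers, and the right panel shows Ccl2, Ccl7 and Ccl5 with the means of 16 macrophage, 15 stellate and 10 stress genes. In the left panel all points of both PRI-724 arrays are below 0, while in the right panel Ccl2 and Ccl7 are above it on the young PRI-724 array (0.14 and 0.29) and below it on the old one (-2.05 and -1.31).

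PRI-724 against quiescent cells joined the differences of the first comparisons, with which it shares arrays. Of the 9 tested members 6 were lower and 0 higher, against 2.43% and 1.28% of all tested genes. At an unadjusted p under 0.05 they were 8 and 0, beside 8.06% of all tested genes lower (2528 in either direction). Both PRI-724 arrays were below both quiescent arrays in 8 of the 9, and in 18% of all tested genes. Ccl3 differed by -4.45 ± 0.38 (21.9-fold lower, limma adjusted p = 0.000756) and Ccl9 by -4.34 ± 0.58 (20.3-fold lower). Ccl5 differed by -3.62 ± 0.48, Ccl2 by -2.35 ± 0.30, Ccl4 by -2.003 ± 0.26 and Ccl7 by -1.93 ± 0.29. Ccl6 stood at -3.59 ± 0.94 with an adjusted p of 0.0714 from limma. Ccl24 at -0.84 ± 0.33 and Ccl11 at -0.02 ± 0.32 were not called. Without the young PRI-724 array 0 of all genes were called by limma (2763 at an unadjusted p under 0.05, 7 of them members), and without the old PRI-724 array Ccl3 was the called member. Leaving out the young or the old quiescent array gave -5.58 and -3.10 for Ccl9, -2.57 and -4.67 for Ccl5, and -2.94 and -1.76 for Ccl2. Without the young or the old PRI-724 array Ccl5 stood at -2.92 and -4.32. Of 16 macrophage markers 14 were called lower, of 15 inducing cytokines and receptors 6 and of 15 NF-kB pathway genes 3. Of 12 sinusoidal endothelial markers 8 were called lower, with a median of -2.72. Of 10 stress genes 7 were called lower.

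Old against young cells was the last comparison, over the 3 states. Whether the 3 states of an age came from separate mice or isolations is not known here. A difference between ages may thus hold one between pools of mice or isolations, and these cannot be told apart. Ccl2 and Ccl7 were lower in old cells, 2 of the 9 tested members, and 0 were higher. Of all tested genes 0.251% were called lower and 0.264% higher. At an unadjusted p under 0.05, 5 members and 3.24% of all tested genes were lower (1615 genes in either direction), and 0 members were higher. No member had all old arrays below all young arrays (0 of 9, against 3.53% of all tested genes). The median over the members was -0.62 and over all tested genes 0.04.

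The old minus young difference of Ccl2 was -0.87 in quiescence, -1.91 under vehicle and -2.19 under PRI-724. The fitted change was -1.65 ± 0.24 (n = 3 states), a 3.15-fold lower signal (limma adjusted p = 0.0216). For Ccl7 it was -1.14, -2.25 and -1.60 in the same order, with -1.66 ± 0.24 or 3.17-fold (limma adjusted p = 0.0198). Within every state the old array was thus the lower of the pair for both genes. Both calls were lost without the young and without the old PRI-724 array, where Ccl2 stood at -1.39 and Ccl7 at -1.69. They were also lost after quantile normalization, at -1.71 and -1.77, and after cyclic loess, at -1.72 and -1.77. In each of these fits the direction was the same. Without either of them 0 of all genes were called by age in limma, with 1644 (without the young) and 1642 (without the old) at an unadjusted p under 0.05.

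Ccl5 had age differences of -3.39 in quiescence, -1.53 under vehicle and -1.06 under PRI-724, and its -1.995 ± 0.39 was not called (limma adjusted p = 0.0691). Ccl3 and Ccl4 were lower in all 3 states as well, at -0.91 ± 0.31 and -0.62 ± 0.21, and neither was called. Ccl6 had the widest age difference of any member in a single state, 4.23 higher in old than in young quiescent cells, beside -1.39 under vehicle and 1.14 under PRI-724. Its fitted value of 1.33 ± 0.77 was not called. Ccl9 had 1.23 in quiescence, -2.002 under vehicle and -0.51 under PRI-724, with a fitted -0.43 ± 0.47. Ccl11 and Ccl24 had differences of both signs over the states and fitted values of -0.22 ± 0.26 and -0.18 ± 0.27. Ccl12 had age differences of -0.31 and -1.235 in quiescence and under vehicle and of 0.09 under PRI-724.

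**Figure D4:**
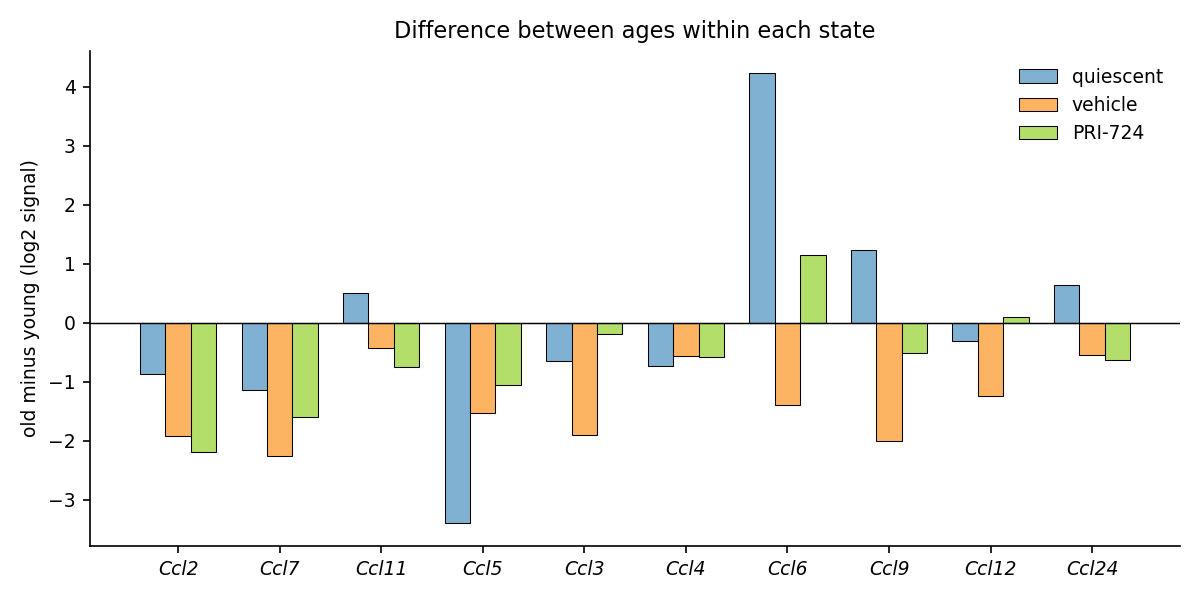
Old minus young log2 signal (vertical axis) of each CC chemokine (horizontal axis) in quiescent (blue), vehicle (orange) and PRI-724 (green) cells, 1 pair of arrays for each bar. Ccl2, Ccl7, Ccl5, Ccl3 and Ccl4 are below 0 in all 3 states, and Ccl6 in quiescent cells is the tallest bar at 4.23.

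Macrophage genes differed between the quiescent arrays, and so did genes of other cell types and of stress. The median old minus young difference there was -1.40 for 12 sinusoidal endothelial markers and -0.62 for 10 stress genes. It was 3.14 for 9 hepatocyte markers. The part of these lists in the chemokine differences was not tested. Of the macrophage-leaning members Ccl6, Ccl9 and Ccl24 were higher on the old quiescent array, by 4.23, 1.23 and 0.64. Ccl3, Ccl4 and Ccl12 were lower there, at -0.65, -0.73 and -0.31. Of 16 macrophage markers 15 were higher in old quiescent cells and 1 lower, with a median difference of 0.62. The share of all tested genes that were higher on that array was not counted. The 3 widest rises, chosen after their values were seen, were in these genes: Marco was at 8.06 in young and 10.74 in old cells, Csf1r at 7.13 and 9.01 and Lyz2 at 8.84 and 11.32. Adgre1 was at 7.67 and 8.02, Ptprc at 7.32 and 7.48, and Timd4 went from 6.75 to 5.10. Their part in the difference of Ccl6 was not tested. Over the 3 states 0 of 16 macrophage markers were called by age (limma, 0 lower and 3 higher at an unadjusted p under 0.05). Beside the falls of Ccl2 and Ccl7, Nfkbia was lower in old cells, at -1.01 ± 0.18 (limma adjusted p = 0.0499), as 1 of 15 NF-kB pathway genes, and this call was lost after cyclic loess. Hepatocyte markers went the other way, with 5 of 9 called higher in old cells, 0 after cyclic loess, and a median of 2.31. Serpina1c was higher by 3.07 ± 0.31.

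The remaining genes of the CC system were mostly dim. Of 11 other CC chemokines 9 were on the array with a single name and 6 were tested, and 0 of these were called in any comparison by limma. At an unadjusted p under 0.05, 3 were lower in vehicle than in quiescent cells. Of 12 CC receptor genes 3 were tested. Ccrl2, a receptor-like protein that does not signal, was lower in PRI-724 than in quiescent cells, at -1.97 ± 0.39 (limma adjusted p = 0.0236). Ccr1, the receptor of Ccl3, Ccl6 and Ccl9, had a mean of 4.57, under the limit of signal, and was not tested. Its values were 4.04 and 4.42 in quiescent cells, young before old. They were 5.83 and 5.25 under vehicle and 4.06 and 3.85 under PRI-724. Ccr2, the receptor of Ccl2 and Ccl7, ranged from 3.64 to 4.21. Of 3 tested atypical receptors, which take up chemokines without signalling, Ackr2 was lower in PRI-724 than in quiescent cells, at -1.86 ± 0.37. Of 4 tested genes of the interleukin-4 and interleukin-13 pathway that induces eotaxins, 0 were called in any comparison by limma. At an unadjusted p under 0.05, 3 of the 4 were lower in old cells, with a list median of -0.69, beside 3.24% of all tested genes. In each of the 2 comparisons of PRI-724, 1 was lower, and 0 were higher in any comparison.

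Likeness of pattern was measured as the root mean square distance between genes over the 6 arrays after each gene was centred on its mean. It is a description over arrays that share their states and carries no test. The nearest genes were sought among the tested genes without predicted and unnamed genes, small RNA genes and some receptor families. The families left out were olfactory, vomeronasal and antigen receptor genes. Ccl2 and Ccl7, which are adjacent on chromosome 11, were 0.43 apart, and each was among the 3 nearest of these genes to the other. Ccl3 and Ccl9 were 0.55 apart, while Ccl2 was 1.42 from Ccl3 and 2.69 from Ccl6. Ccl6 was 1.41 from Ccl9, its neighbour on the chromosome, and 3.41 from Ccl5, the widest distance of all pairs. Ccl3 was nearest to Clec1b (0.44), a lectin receptor gene, and Ccl9 had the scavenger receptor gene Marco at 0.63 and the folate receptor gene Folr2 at 0.69 behind Ccl3. Ccl6 was nearest to the myeloid lectin genes Clec4n (0.79) and Clec7a (0.91). Ccl5 was nearest to Acod1 (0.34), the itaconate-producing enzyme, and to the chemokine gene Cxcl9 (0.51). Ccl7 had H2-Q5 (0.39), Ccl2 and Nfkbia (0.49) nearest. Ccl4 was nearest to Rasgrp1 (0.18), and Ccl4 lay closer to Ccl2 (0.68) than to Ccl3 (1.28). The distance counts the size of changes as well as their direction. Over the arrays Ccl4 had a range of 2.65, Ccl2 of 3.88 and Ccl3 of 4.87. The smaller distance to Ccl2 thus does not by itself show a closer shape. For Ccl11 and Ccl24, whose signal varied little, the nearest genes were Cntn1 (0.06) and Adamts13 (0.18).

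**Figure D5:**
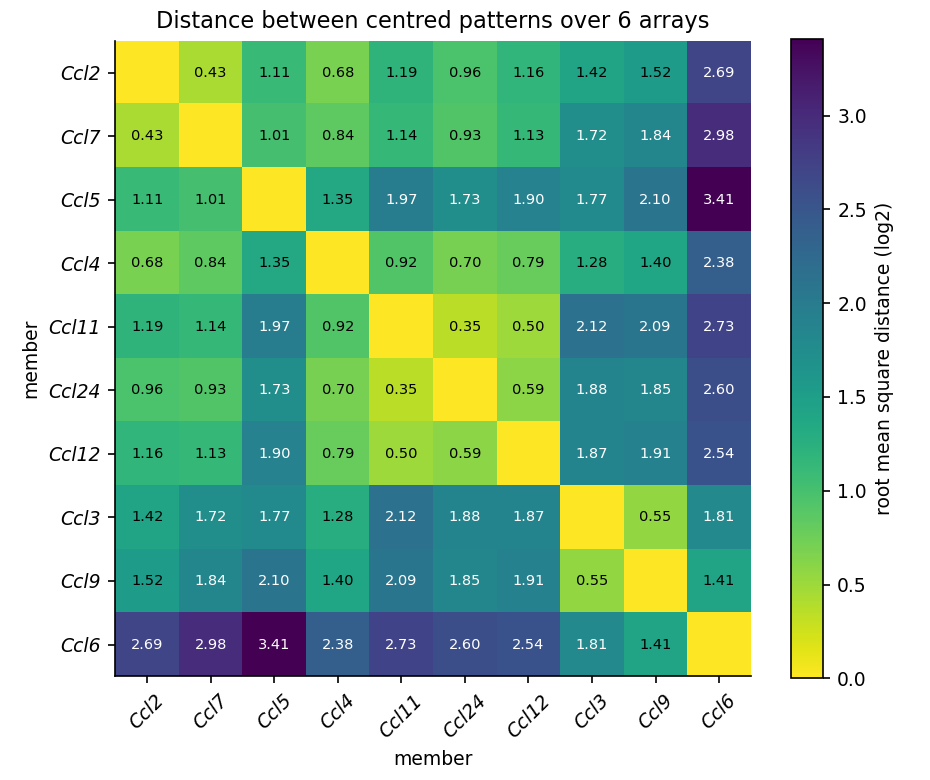
Root mean square distance in log2 units between the centred patterns of each pair of CC chemokines over the 6 arrays (both axes list the members, colour and number give the distance). Ccl2 and Ccl7 (0.43) and Ccl3 and Ccl9 (0.55) are close, and Ccl6 is far from Ccl5 (3.41).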

How the data were processed

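The deposited values are log2 signals, made with Affymetrix Expression Console and RMA per the submitters' processing notes. Their settings are not stated in the sources at hand. Of 41345 probe sets, 23521 named 1 gene in the platform table, 1814 several and 16010 none; the last kinds were not used. A gene was taken by its brightest probe set, and the 30% of genes with the lowest mean were left out. Differences were tested with limma 3.58.1 (R 4.3.3; age and state in the model, intensity trend, 2 residual and 7.76 prior degrees of freedom). The number of arrays limits the precision. With 1 array in each group, the p-values do not measure a spread between samples of a group. They rest on limma's moderated disagreement of the ages over the states. Any difference between the ages in their response is part of that disagreement.

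The members, gene lists, comparisons and alternatives were chosen with earlier results of these data known. The genes named were all members, defining markers, some called genes of each list (up to 4) and some of the 3 genes nearest in pattern to a member. Called genes with a larger difference than a named gene were in places left out. An example is Hspa1a, at -3.20 in vehicle-treated against quiescent cells. Other single markers and receptors (Lyz2, Csf1r, Marco and Timd4 in quiescent cells, Ccr1, Ccr2) were named after their values were seen.

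The test was tried on simulated data with 2 choices of noise, and the outcome depended on the choice. With limma's moderated variances it recovered the larger planted changes; a first version, with each gene's own residual variance, recovered none of them in the comparisons of states. The moderated variances come from the tested model itself and favour it, so no recovery rate is used here.

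Promoters were aligned locally with Biopython 1.88 (match 2, mismatch -3, gap opening -7, extension -2). Figures used Python 3.11.15, pandas 2.3.3 and matplotlib 3.10.9.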

Additional observations from a re-analysis of the deposited data

Results flagged for a closer look

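4 members went in opposite directions in the young and the old pair, by at least 0.5 log2 units in each. With 1 array in each group these differences between ages were not tested. From quiescent to vehicle-treated cells Ccl6 changed by 4.55 (young) and -1.07 (old), and Ccl9 by 0.97 and -2.26. From vehicle to PRI-724, Ccl12, which was below the limit of signal, had -0.78 (young) and 0.55 (old). From quiescent cells to PRI-724, Ccl11, near that limit, had 0.61 and -0.64.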

How the results depend on the processing

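The members called were 4, 3, 6 and 2 in the order of the report (vehicle against quiescent, PRI-724 against vehicle, PRI-724 against quiescent, old against young). Without the other factor in the model they were 0, 1, 3 and 0. With quantile normalization PRI-724 against vehicle had 1 and age 0, and with cyclic loess also 1 and 0. Leaving out 1 array gave 2 to 5, 0 to 3, 0 to 8 and 0 to 4. These fits have 1 residual degree of freedom, and their gains in calls, which came without a quiescent or vehicle array, are not read as support. No paired analysis with a replicate number was possible because each group has 1 array; the pairing by age is part of the model.

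Signs turned when 1 array was left out, in differences that were not called. From quiescent to vehicle, Ccl6 ranged from -0.44 to 3.92 (-0.30 without the young vehicle array) and Ccl9 from -1.88 to 0.60 (0.54 without the old vehicle array). For PRI-724 against vehicle, Ccl7 ranged from -0.048 to 0.83, Ccl24 from -0.014 to 0.67 and Ccl5 from -0.69 to 0.71 (-0.34 without the young vehicle array). For PRI-724 against quiescent, Ccl11 ranged from -0.56 to 0.53 (0.38 without the old PRI-724 array). By age, Ccl11 ranged from -0.59 to 0.038, Ccl24 from -0.59 to 0.051 (0.0012 without a vehicle array), Ccl6 from -0.12 to 2.69 and Ccl9 from -1.25 to 0.36. The cause was not tested.

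Among all tested genes, vehicle against quiescent had 195 called lower and 716 higher, but 326 and 428 with arrays centred on their medians, which moved the median of all genes from 0.04 to -0.21. PRI-724 against vehicle had 299 and 42, but 98 and 2 after cyclic loess. By age the counts were 39 and 41, but 8 and 4 after cyclic loess and 32 and 18 after centring. Under these scalings no tested member changed direction.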
